A study of Homo sapiens with 15 samples.

Results

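RNA recovered with Brg1 was compared between 2 established human prostate cancer cell lines, 22Rv1 and LNCaP, after each line's recovery had been set against its own input RNA. The members are the table rows present for both lines with 20 or more reads in each of the 8 Brg1 and input libraries. They number 18840 of the 19400 rows that both lines share, and of 25311 rows in either table. They cover 12184 genes. Of these rows, 9704 carry the suffix .primary after the gene symbol and 9136 are plain, and 6656 genes have a member row of each kind. The sources used here do not say what the suffix marks, so the kinds are named by it and kept apart.

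SWI/SNF complexes use ATP to slide or evict nucleosomes, and Brg1, encoded by SMARCA4, is one of their alternative motor subunits. The long noncoding RNA SCHLAP1 has been reported to interact with SWI/SNF in prostate cancer, and the series addresses where SWI/SNF stays when that RNA is present. In RNA immunoprecipitation, an antibody to a protein pulls down the RNA held with it, and an RNA recovered beyond its input level takes a larger share of the reads in the precipitate than in the input.

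The 4 groups were Brg1 precipitates and input RNA of untreated 22Rv1 cells, and the same of untreated LNCaP cells. Per the labels, both lines were grown in RPMI1640 with serum, and all cells were fixed in formaldehyde before precipitation. Each group holds 2 libraries, lettered A and B. No label says that these came from separate cultures, so the p-values measure the spread between these libraries, which may be technical. IgG control precipitates were deposited as 3 libraries for 22Rv1 and 2 for LNCaP.

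Levels are given in RPM, a row's share of its library's reads on the usual scale. The ratio used below is the log2 difference in RPM between Brg1 and input within a line. The difference is the ratio in 22Rv1 minus the ratio in LNCaP, so a positive difference means more recovery over input in 22Rv1. A row was called when its adjusted p from limma was under 0.05. RPM is a share of a library, so a higher share for some RNAs cannot be told apart from a lower share for the rest.

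Recovered reads ran from 16037423 to 47871438 in the 22Rv1 Brg1 and input libraries and from 6367908 to 7506724 in those of LNCaP. The IgG libraries held 490879 to 4424105 reads in 22Rv1, and 22184 and 46297 in LNCaP. At that depth only 334 member rows had 20 IgG reads in the LNCaP libraries together, against 15991 in 22Rv1, so IgG values of LNCaP are given as reads for few rows. Of 9 luminal marker genes, 7 had rows for both lines, and their summed input level was 238 and 249 RPM in 22Rv1 and 2261 and 2205 in LNCaP. Of 4 defining basal and 5 defining neuroendocrine markers, none had a row for both lines, and 1 of 8 stromal or immune markers did, at 17.6 to 19.95 RPM in all 4 inputs.

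The LNCaP libraries lettered A and B differed from each other. With 2 libraries per group, the data do not show which letter is the more typical. For .primary rows, the median ratio was -0.11 between Brg1 A and input A of LNCaP and 0.51 between Brg1 B and input B. The mixed pairs gave 0.19 and 0.22. In 22Rv1 the 4 pairs lay between 0.41 and 0.60. The plain rows of LNCaP ran from -0.45 for B with B to -0.13 for A with A, and those of 22Rv1 from -0.90 to -0.71. In both row types the B with B medians lie nearer 22Rv1 than the A with A medians. Leaving out A therefore narrows the median difference between the lines in each row type, and leaving out B widens it. Because the letters differ, the results are given with all libraries and again without both LNCaP A libraries. In that second fit each LNCaP group is 1 library, which is assumed to vary like the 22Rv1 groups.

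**Figure D1:**
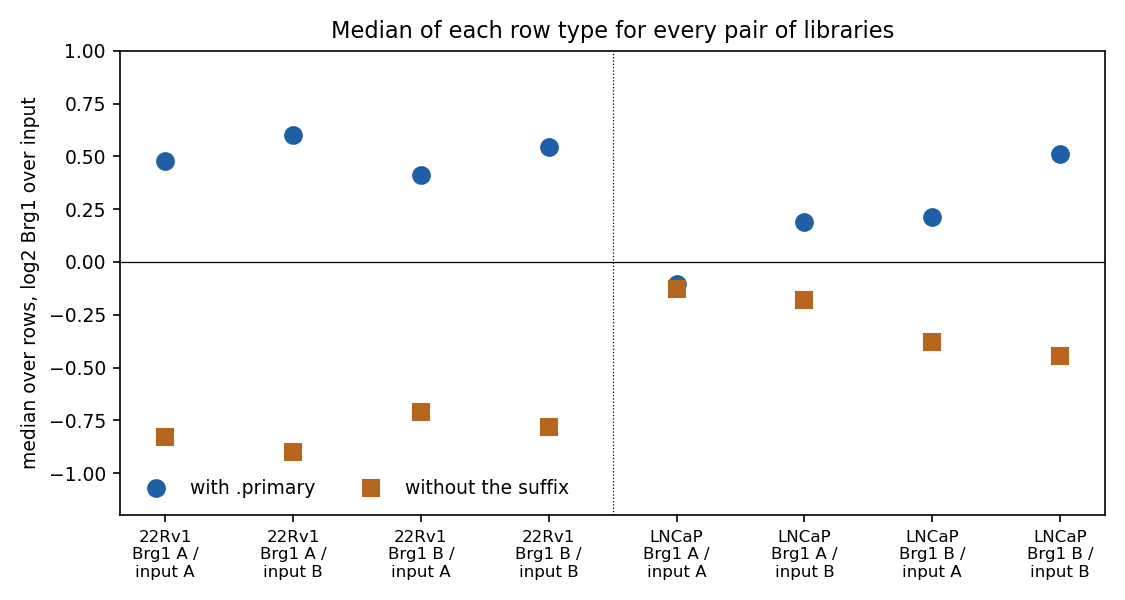
Median log2 ratio of Brg1 to input over the .primary rows (circles) and the plain rows (squares) for each pair of a Brg1 and an input library, with 22Rv1 on the left and LNCaP on the right. The types are far apart in every 22Rv1 pair and meet near -0.11 and -0.13 in the LNCaP pair made of both A libraries.

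Across the 18840 rows the ratios of the lines had a Pearson correlation of 0.81 and a Spearman correlation of 0.77. It was higher among .primary rows (Pearson 0.88) than among plain rows (0.71). These values describe rows, which share libraries and are not replicates. The spread of the ratio over rows was wider in 22Rv1, with an SD of 0.997 against 0.637 in LNCaP. In 22Rv1, 4962 rows (26.3%) were called above input and 7445 (39.5%) below it. In LNCaP, 3324 (17.6%) were above and 3641 (19.3%) below. Of these, 2935 rows were above input in both lines and 3032 below input in both.

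A difference between the lines was called for 2218 rows. Of these, 426 (2.26% of all rows tested) had the higher ratio in 22Rv1 and 1792 (9.51%) in LNCaP. The balance of directions rests on the scaling. With trimmed-mean (TMM) factors in place of library totals, every difference moves up by 0.15 and the calls are 910 and 715. edgeR with TMM called 1076 and 976, DESeq2 1399 and 1214, and limma with median-of-ratios factors 916 and 841. Without both LNCaP A libraries the calls were 87 and 155, and without both LNCaP B libraries they were 3702 and 4581. Of the calls without the A libraries, 202 had been called in the same direction with all libraries.

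The difference followed the row type. The .primary rows had a median ratio of 0.51 in 22Rv1 and 0.19 in LNCaP, a median difference of 0.33. Of them, 413 were called higher in 22Rv1 and 24 in LNCaP. The plain rows had median ratios of -0.81 and -0.28, a median difference of -0.59, with 13 called higher in 22Rv1 and 1768 in LNCaP. Without both LNCaP A libraries the median differences shrank to 0.03 for .primary rows and -0.39 for plain rows. Without both B libraries they widened to 0.62 and -0.79. The same contrast shows in raw shares. Rows with the suffix took 65.7% and 62.7% of the reads in the 22Rv1 Brg1 libraries and 38.2% and 34.8% in their inputs. In LNCaP they took 50.8% and 60.5% in Brg1 A and B, and 42.3% and 35.2% in input A and B. The IgG libraries had 62.5%, 59.5% and 39.1% in 22Rv1, and 66.9% and 66.8% in LNCaP. So 4 of the 5 IgG libraries held .primary shares of 59.5% or more, near those of Brg1 in 22Rv1, and what part of the Brg1 share is specific to the antibody was not tested.

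**Figure D2:**
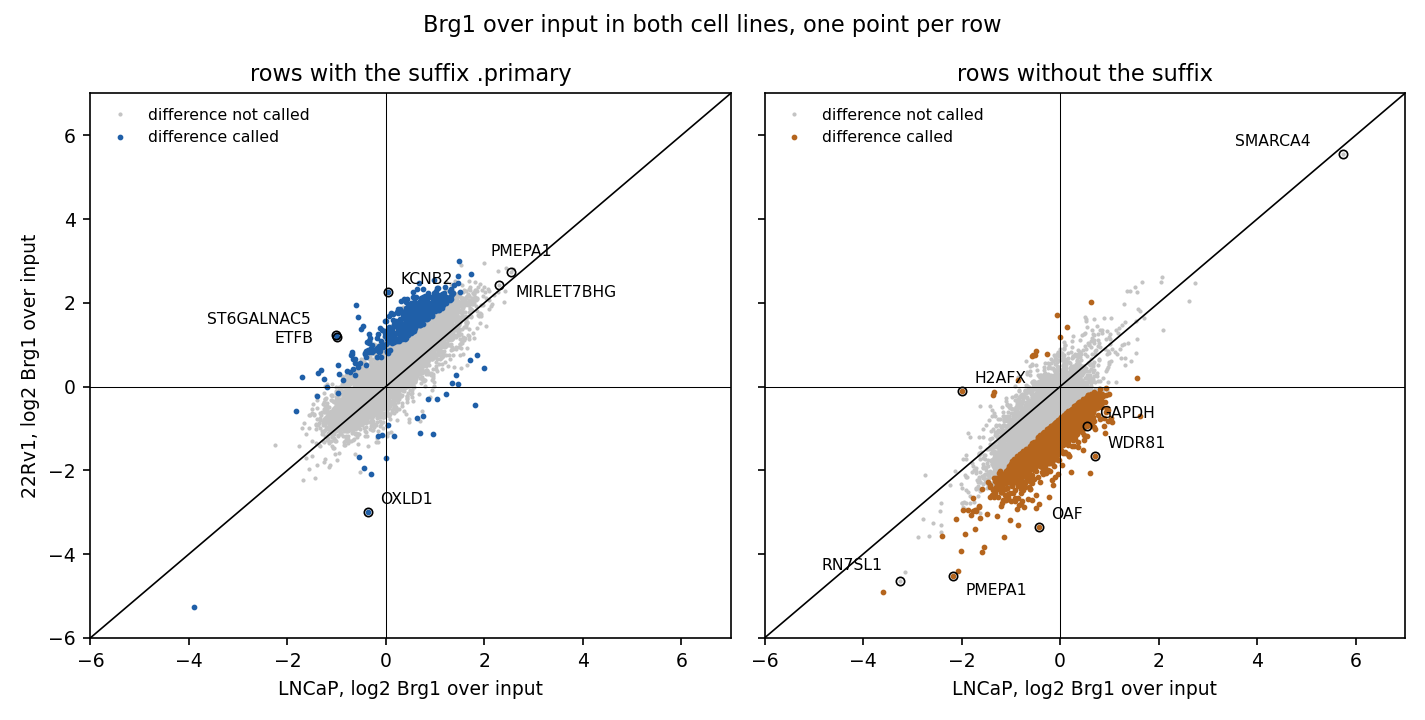
Log2 ratio of Brg1 to input in LNCaP (horizontal) and in 22Rv1 (vertical) for each row, with .primary rows on the left and plain rows on the right; coloured points are rows whose difference was called, and the diagonal marks equal ratios. Called .primary rows lie mostly above the diagonal (413 of 437) and called plain rows below it (1768 of 1781), while SMARCA4 lies close to it at 5.75 and 5.56.

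Comparing the 2 rows of a gene inside a library removes the library's scale. For each of the 6656 genes with both rows, the log2 ratio of .primary to plain was taken in Brg1 and set against input. This shift had a median of 1.08 in 22Rv1 and 0.31 in LNCaP. The shift was larger in 22Rv1 for 94.2% of the genes, by a median of 0.82. It was called larger in 22Rv1 for 274 genes (4.12%) and in LNCaP for 2 (0.03%). When the LNCaP A libraries were left out, the median difference was 0.33, 74.1% of the genes had a larger shift in 22Rv1, and 0 genes were called by limma, with 685 at an unadjusted p under 0.05. Without the B libraries 3896 and 10 were called.

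The largest such difference was that of PELO, which encodes a factor that rescues stalled ribosomes. Its log2 ratio of .primary to plain was -1.05 and -1.56 in the 22Rv1 inputs and 3.25 and 1.503 in the Brg1 libraries. In LNCaP it was -1.52 and -1.74 in input and -2.35 and -2.48 in Brg1. The 22Rv1 shift was 3.68 and the LNCaP shift -0.78, a difference of 4.47 (adjusted p 0.092 without the LNCaP A libraries, with a difference of 4.42). The 2 genes with the opposite difference were H2AFX, the gene of the histone variant that marks DNA breaks, at -3.59, and OXLD1, at -2.27.

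**Figure D3:**
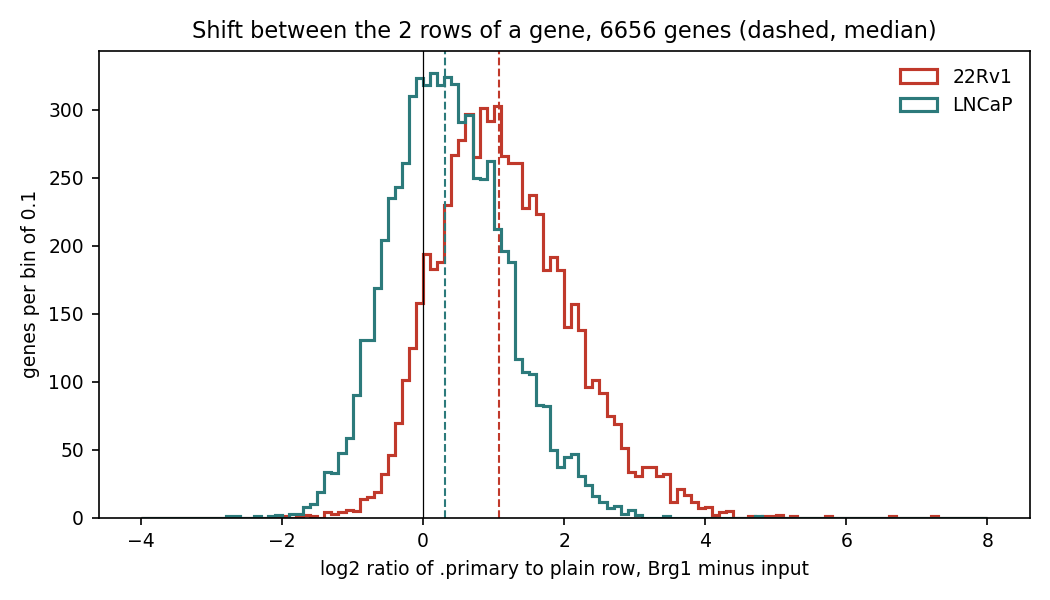
Number of genes (vertical, bins of 0.1) by the shift of their log2 ratio of .primary to plain row from input to Brg1 (horizontal), in 22Rv1 and LNCaP, with dashed lines at the medians. The 22Rv1 distribution is centred at 1.08 and that of LNCaP at 0.31.

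Rows were taken as recovered alike when the 95% interval of their difference lay wholly between -1 and 1. This held for 6698 rows (35.6%): 45.7% of the .primary rows and 24.7% of the plain rows. Among them 1154 were called above input in both lines and 1173 below input in both. A further 9924 rows were neither alike nor called, so for them the libraries decide neither way. Without both LNCaP A libraries 9146 rows met the interval.

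SMARCA4, which encodes Brg1 itself, stood at the top of the rows recovered alike. Its plain row (chr19:10961030-11062273, hg38, as are all positions here) held 310 and 296 RPM in the 22Rv1 inputs and 12446 and 16356 in the Brg1 libraries. In LNCaP it held 211 and 218 in the inputs and 12763 and 10406 in Brg1. All 4 Brg1 libraries lay far above all 4 inputs. The ratio was 47.1-fold in 22Rv1 and 53.7-fold in LNCaP, and the difference was -0.19 with an interval from -0.91 to 0.53. The IgG libraries of 22Rv1 held 262, 265 and 308 RPM, close to input. Those of LNCaP held 160 of 22184 reads in A and 9 of 46297 in B, which is 7212 and 194 RPM, so IgG A of LNCaP lay near the Brg1 level.

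The other rows highest in both lines were TMEM204.primary, PMEPA1.primary, LINC00910 and MIRLET7BHG.primary. TMEM204.primary held 85.7 and 92.4 RPM in Brg1 against 12.6 and 12.5 in input of 22Rv1, and 56.1 and 75.4 against 12.1 and 9.72 in LNCaP. LINC00910, an intergenic noncoding gene, held 111 and 112 against 21.9 and 18.1, and 164 and 160 against 24.5 and 23.5. Their differences were 0.24 and -0.27. Brg1 and input did not overlap for either row in either line. The IgG libraries of 22Rv1 held 56.7, 2.28 and 42.8 RPM for TMEM204.primary and 67.1, 27.4 and 18.3 for LINC00910. All of these lay below both Brg1 libraries, and most lay above both inputs.

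The rows lowest in both lines while alike were plain rows of MCUR1, PLAGL2, RNF11, RPL22 and C5orf51, with ratios between -2.36 and -1.82 in 22Rv1 and between -2.23 and -1.78 in LNCaP. RPL22, a protein of the large ribosomal subunit, held 30.3 and 29.3 RPM in Brg1 against 107 and 104 in input of 22Rv1, and 18.5 and 15.0 against 55.9 and 60.5 in LNCaP. Its difference was -0.03, with an interval from -0.58 to 0.53. PLAGL2, a zinc finger transcription factor, gave -2.02 and -2.14.

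Of the member rows, 13 have names that start with MIR. The 4 described here were chosen after their values were seen, or by their difference, and microRNAs of all but MIR3648-1 are shown by sequence. The libraries measured long RNA, so the mature microRNAs themselves were not measured. MIRLET7BHG.primary, the host of let-7a-3 and let-7b, held 204 and 190 RPM in Brg1 against 38.4 and 34.7 in input of 22Rv1. In LNCaP it held 1298 and 1568 against 312 and 272. Its input level was far higher in LNCaP, yet its ratios were 2.43 and 2.29, a difference of 0.14 with an interval from -0.39 to 0.66. The IgG libraries of 22Rv1 held 155, 114 and 65.2, between input and Brg1.

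MIR663A gave 27.2 and 25.9 RPM in Brg1 against 11.1 and 8.23 in input of 22Rv1, and 31.9 and 27.6 against 12.1 and 12.8 in LNCaP. Its ratios were 1.47 and 1.25. MIR3648-1 gave 62.5 and 62.7 against 25.1 and 16.2, and 87.2 and 58.3 against 18.6 and 25.6, with ratios of 1.63 and 1.71. Both rows were alike, and their IgG levels in 22Rv1 (24.4 to 78.8 and 48.9 to 399) were above both Brg1 libraries in 2 of the 3 IgG libraries and below them in the third. In contrast, MIR583HG.primary was called higher in 22Rv1 (difference 1.80, adjusted p 0.040). Its inputs there held 0.627 and 3.93 RPM against 9.59 and 9.10 in Brg1, so the value leans on 1 very low input. RefSeq lists that name as a synonym of CAST, whose span contains miR-583. Of the 13 rows, MIR4713HG.primary was also called, at 1.30, and 0.44 without the LNCaP A libraries (adjusted p 0.28).

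The mature microRNAs of these loci, from RefSeq on GRCh38.p14, are given 5′ to 3′ with the seed, bases 2 to 8, in capitals. The let-7a-5p and let-7b-5p sequences share 1 seed, which the other microRNAs shown do not have. They map to chr22:46112752-46112773 (let-7a-5p, plus strand), chr22:46113691-46113712 (let-7b-5p, plus), chr20:26208243-26208264 (miR-663a, minus) and chr5:96079153-96079173 (miR-583, plus).
hsa-let-7a-5p: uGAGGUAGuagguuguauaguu
hsa-let-7b-5p: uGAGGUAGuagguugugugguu
hsa-miR-663a: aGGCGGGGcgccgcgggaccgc
hsa-miR-583: cAAAGAGGaaggucccauuac

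The rows with the largest difference towards 22Rv1 were mostly .primary rows that lay above input in 22Rv1 and at or below it in LNCaP. ST6GALNAC5.primary (chr1:76867480-77067546), of a sialyltransferase gene, held 53.1 and 55.2 RPM in Brg1 against 25.4 and 20.7 in input of 22Rv1. In LNCaP it held 36.9 and 28.4 against 62.2 and 69.1. Brg1 exceeded input in 22Rv1 and fell short of it in LNCaP, with no overlap in either line. The difference was 2.25 (SE 0.28, adjusted p 1.8e-06), and 2.51 without the LNCaP A libraries (adjusted p 2.3e-05). The IgG libraries of 22Rv1 held 53.1, 56.5 and 10.2, so 2 of the 3 equalled Brg1.

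KCNB2.primary, of a voltage-gated potassium channel gene, held 448.9 and 392.1 RPM in Brg1 against 89.9 and 85.2 in input of 22Rv1. In LNCaP it held 9.11 and 11.8 against 10.6 and 9.46, where Brg1 and input overlap. The ratio was 4.79-fold in 22Rv1 and 1.04-fold in LNCaP, a difference of 2.21 (SE 0.28, adjusted p 1.8e-06; 1.94 without the LNCaP A libraries, adjusted p 9.3e-05). The IgG libraries of 22Rv1 held 401, 573 and 73.3 RPM for this row, so 2 of the 3 matched or passed Brg1. ETFB.primary (chr19:51345155-51366388), of the electron transfer flavoprotein beta subunit, held 13.1 and 8.84 against 5.54 and 3.93, and in LNCaP 9.74 and 8.52 against 16.7 and 19.9. Its difference was 2.18 (SE 0.41, adjusted p 0.0013), with no IgG read in any library.

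TMEM110-MUSTN1.primary had the largest difference of those named, 2.55 (SE 0.58, adjusted p 0.0062). It held 90.5 and 101 RPM in Brg1 against 29.3 and 21.0 in input of 22Rv1. In LNCaP the Brg1 libraries disagreed, at 44.6 in A and 3.75 in B, against 19.6 and 20.3 in input. Its difference was 4.34 without the LNCaP A libraries and 0.76 without the B libraries, so a single Brg1 library sets its size. It is a readthrough of neighbouring genes, as is HSPE1-MOB4.primary, and reads shared with those genes make both uncertain.

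The other rows named on this side were HSPE1-MOB4.primary at 1.95, RNF139.primary at 1.91, the plain row of H2AFX at 1.88, ENPP7P8.primary at 1.87, MIR583HG.primary at 1.80 and the plain row of SYT15 at 1.76. Of these 6, ENPP7P8.primary kept its call without the LNCaP A libraries (2.68, adjusted p 0.0052), and its difference was 1.07 without the B libraries. HSPE1-MOB4.primary gave 1.06 without the A libraries (adjusted p 0.17) and 2.83 without the B libraries. H2AFX differed in both rows and in opposite directions. Its plain row held 6.75 and 9.24 RPM in Brg1 against 30.9 and 32.5 in input of LNCaP, and 13.2 and 30.5 against 21.2 and 22.0 in 22Rv1. Its .primary row gave a ratio of -1.70 in 22Rv1 and 0.00 in LNCaP, a difference of -1.70 (-1.23 without the LNCaP A libraries, adjusted p 0.0061).

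The rows with the largest difference towards LNCaP were nearly all plain rows, far below input in 22Rv1 and less so in LNCaP. OAF (chr11:120211032-120230334) held 2.17 and 1.90 RPM in Brg1 against 22.4 and 21.3 in input of 22Rv1, and 3.46 and 4.04 against 3.69 and 6.93 in LNCaP. The difference was -2.94 (SE 0.50, adjusted p 0.00047; -2.60 without the LNCaP A libraries, adjusted p 0.023). Its .primary row was alike, with ratios of 1.68 and 1.74.

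PMEPA1 (chr20:57648396-57711472), an androgen-regulated gene that encodes a membrane protein damping TGF-beta signalling, showed both patterns in 1 gene. Its plain row held 1.01 and 1.08 RPM in Brg1 against 24.8 and 27.9 in input of 22Rv1, 23.0-fold below input. In LNCaP it held 14.6 and 13.3 against 60.5 and 65.4, 4.49-fold below. The difference was -2.36 (SE 0.36, adjusted p 0.00011; -2.23 without the LNCaP A libraries, adjusted p 0.014). Its .primary row held 188 and 205 against 28.9 and 30.2, and 287 and 333 against 59.0 and 47.8. It was recovered alike, 6.63-fold and 5.82-fold above input. For that row the IgG libraries of 22Rv1 held 140, 68.5 and 40.7 RPM, between input and Brg1. The shift between its rows was 7.26 in 22Rv1 and 4.71 in LNCaP.

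GNPNAT1, an enzyme of UDP-GlcNAc synthesis, held 3.24 and 4.15 RPM in Brg1 against 35.6 and 39.3 in input of 22Rv1, and 12.1 and 14.6 against 24.2 and 24.1 in LNCaP. Its difference was -2.45 (SE 0.35, adjusted p 4.2e-05; -2.59 without the LNCaP A libraries, adjusted p 0.0013). WDR81 was the row among these 10 that lay above input in LNCaP, at 38.5 and 34.1 against 31.5 and 15.6, and below it in 22Rv1, at 5.68 and 10.3 against 27.1 and 21.9. Its difference was -2.37 (adjusted p 0.00014; -2.78 without the LNCaP A libraries, adjusted p 0.0018).

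OXLD1.primary (chr17:81665036-81666605) was the single .primary row among the 10, at -2.63. It held 3.45 and 1.08 RPM in Brg1 against 18.2 and 14.4 in input of 22Rv1, and 10.1 and 10.4 against 15.9 and 10.9 in LNCaP. The others were RAP2A at -2.46, BCL10, an adaptor of NF-kappaB signalling, at -2.42, ABHD17C at -2.41, FOSL2, an AP-1 transcription factor, at -2.39 and RYBP, a Polycomb protein, at -2.36. These 5 stayed negative without the LNCaP A libraries but were not called, with adjusted p from 0.066 to 0.21. For RYBP the LNCaP Brg1 libraries disagreed, at 9.42 RPM in A and 2.89 in B, and its difference was -1.46 without the A libraries and -3.25 without the B libraries.

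**Figure D4:**
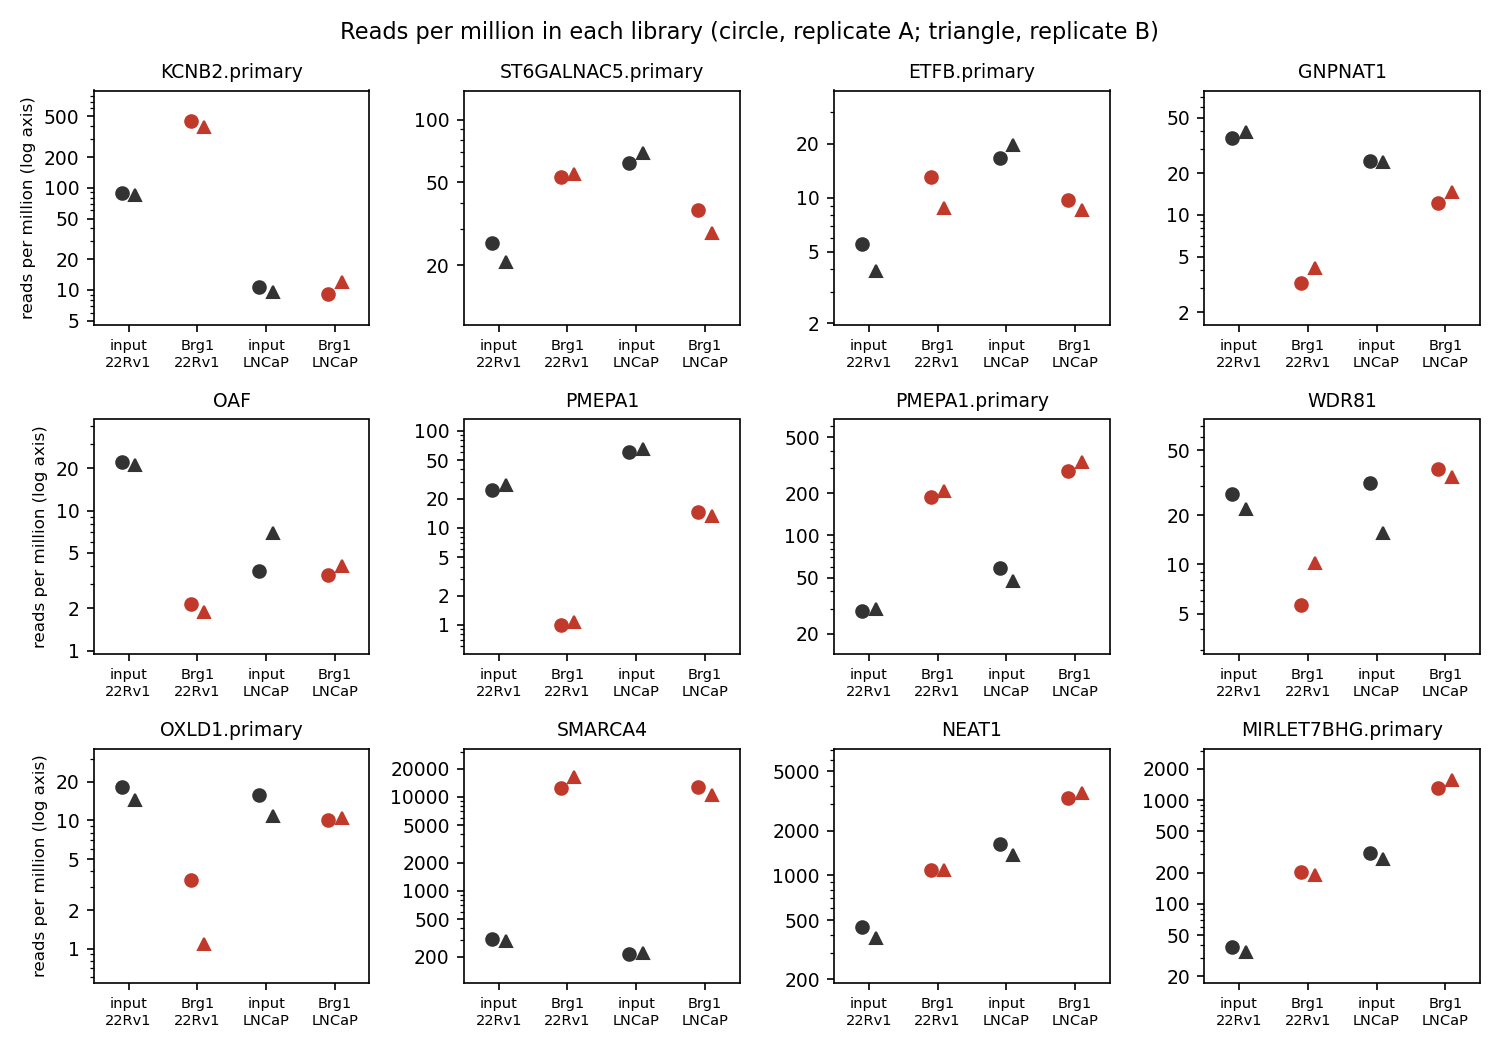
RPM (log axes, a separate scale for each panel) of 12 rows in each input (black) and Brg1 (red) library, with circles for replicate A and triangles for replicate B. KCNB2.primary rises over input in 22Rv1 alone, the plain row of PMEPA1 lies below input in both lines and its .primary row above it in both, and SMARCA4 is above input alike.

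Recovery in 1 line only, meaning called above input in that line, not called above in the other, and with the difference itself called, held for 394 rows. Of these, 188 were recovered in 22Rv1 only (180 of them .primary) and 206 in LNCaP only (195 plain). The number was 71 without the LNCaP A libraries. Calls in opposite directions, with the difference called, were found for 87 rows. In 82 the row was below input in 22Rv1 and above it in LNCaP. The 5 with the reverse were ST6GALNAC5.primary, ETFB.primary, BMS1P14.primary (difference 1.48), ISY1-RAB43.primary (1.46) and ZNF646.primary (1.27), the last 3 chosen after their values were seen.

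A stricter reading keeps rows whose difference was called with all libraries, again without both LNCaP A libraries, and again after each library had been centred within its row type. This left 39 rows higher in 22Rv1 and 62 higher in LNCaP, sets chosen after the values were seen and therefore not tested. Of the 39, 36 were .primary, and they came from long genes, with a median span of 341 kb against 47.1 kb for all .primary rows. Examples, chosen after their values were seen, are genes of calcium channel subunits, a GABA receptor, adhesion and axon guidance proteins and a synaptic vesicle protein: CACNA1C.primary (difference 1.13), CACNA2D3.primary (1.33), GABBR2.primary (1.71), NCAM1.primary (1.37), CDH2.primary (1.35), SLIT3.primary (1.23), UNC5C.primary (1.25) and SYT1.primary (1.34). IgG was high for some of them in 22Rv1. CACNA1C.primary held 501 and 517 RPM in Brg1 there and 373, 480 and 128 in IgG, whereas GABBR2.primary held 77.0 and 71.2 in Brg1 and 36.4, 16.6 and 8.15 in IgG. GLI2.primary, of a Hedgehog pathway transcription factor, gave 1.69. Of the 36, 28 (77.8%) also had an input level more than 2-fold higher in 22Rv1, against 14.1% of all .primary rows. The part of input abundance in their difference was not tested.

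Of the 62 rows higher in LNCaP, 55 were plain, and they came from short genes, with a median span of 12.7 kb against 32.4 kb for all plain rows. They include the mRNAs of GAPDH (difference -1.49), PFN1 (-1.43), KRT18 (-1.47), MIF (-1.32), MDH2 (-1.22), the ATP synthase subunits ATP5MG (-1.63) and ATP5PF (-1.68), the proteasome subunits PSMA5 (-1.27) and PSMB1 (-1.30), the peroxiredoxins PRDX5 (-1.46) and PRDX6 (-1.21), and YBX1 (-1.53). Over the 55 plain rows the log2 input ratio of 22Rv1 to LNCaP had a median of 0.32, against 0.35 for all plain rows, but single rows differed widely. In 12 of the 55 (21.8%) the input level was more than 2-fold higher in 22Rv1, against 19.05% of all plain rows, and in 6 it was more than 2-fold lower.

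Gene span went with the difference over all rows as well. In 4 equal bins of .primary rows, from the shortest genes to the longest, the median difference was 0.18, 0.26, 0.33 and 0.49. The plain rows gave -0.77, -0.64, -0.55 and -0.41. Without the LNCaP A libraries the .primary bins gave -0.12, -0.05, 0.01 and 0.21, and the plain bins -0.49, -0.43, -0.38 and -0.28. The longest .primary bin had median ratios of 1.23 in 22Rv1 and 0.67 in LNCaP. In 4 bins of mean level the medians moved less, from 0.27 to 0.40 for .primary rows and from -0.54 to -0.64 for plain rows.

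Gene lists separate the rows further, and each is read against the 2.26% and 9.51% of all rows called towards 22Rv1 and LNCaP and against the share for its own row type. Towards LNCaP that share was 19.4% of plain and 0.25% of .primary rows, and towards 22Rv1 0.14% and 4.26%. With libraries centred within row type, limma's count towards LNCaP went from 31 to 2 for histone, 65 to 6 for ribosomal, 19 to 3 for glycolysis and cytoskeleton, 6 to 0 for mitochondrial and 6 to 0 for SWI/SNF rows. Replication-dependent histone genes, whose mRNAs are short, unspliced and lack a poly(A) tail, had 41 plain rows. They lay below input in 22Rv1 and near it in LNCaP, with median ratios of -0.91 and 0.12 and a median difference of -1.05. Of them, 31 were called higher in LNCaP and 0 in 22Rv1. HIST3H2BB held 75.1 and 94.2 RPM in Brg1 against 162 and 155 in input of 22Rv1, and 8.95 and 7.51 against 4.25 and 6.26 in LNCaP. Without the LNCaP A libraries the median difference was -0.63 and 2 rows stayed called, HIST1H2BD and HIST3H2BB.

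Cytoplasmic ribosomal protein genes had 120 rows, of which 65 were called higher in LNCaP and 1 in 22Rv1. All 65 were among their 81 plain rows, whose median ratios were -1.77 in 22Rv1 and -0.82 in LNCaP. RPS28 gave -2.78 and -1.18. The 39 .primary rows had a median of -0.70 in both lines, with RPL27A.primary the row higher in 22Rv1 (1.42). RPS28 was the 1 row called without the LNCaP A libraries. The 13 mitochondrially encoded mRNAs were below input in both lines, with medians of -2.98 and -2.12, and 6 were called higher in LNCaP. MT-CO1 held 686 and 744 RPM in Brg1 against 5266 and 5993 in input of 22Rv1, and 4116 and 2614 against 9789 and 11799 in LNCaP. Without the LNCaP A libraries 0 of the 13 were called by limma, with 4 at an unadjusted p under 0.05, and their median difference went from -0.997 to -0.43.

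Abundant glycolysis and cytoskeleton mRNAs had median ratios on either side of input in the 2 lines. Their 28 plain rows had a median of -0.52 in 22Rv1 and 0.28 in LNCaP. Of these, 20 were called below input in 22Rv1 and 0 above, while 8 were called above input in LNCaP and 2 below. GAPDH and ACTB were not among the 8. The median difference was -0.92, and -0.63 without the LNCaP A libraries. Of the 28, 19 were called higher in LNCaP, against 0 of the list's 14 .primary rows. The count was 2 without the LNCaP A libraries, GAPDH and PFN1. GAPDH held 416 and 511 RPM in Brg1 against 855 and 920 in input of 22Rv1, and 2123 and 1494 against 1122 and 1333 in LNCaP. Its difference was -1.49 (adjusted p 0.0043; -1.11 without the LNCaP A libraries, adjusted p 0.032). ACTB gave -0.99 (adjusted p 0.034; -0.70 and 0.14). Secretory and membrane protein mRNAs, translated at the endoplasmic reticulum, had 14 rows called higher in LNCaP and 2 in 22Rv1 of 55. The 14 were among the list's 29 plain rows. The 2 were SSR3.primary (1.23) and CDH1.primary (0.96), whereas the plain row of CDH1, the E-cadherin gene, gave -0.99. With the LNCaP A libraries left out 0 of the 55 were called by limma, with 14 at an unadjusted p under 0.05.

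**Figure D5:**
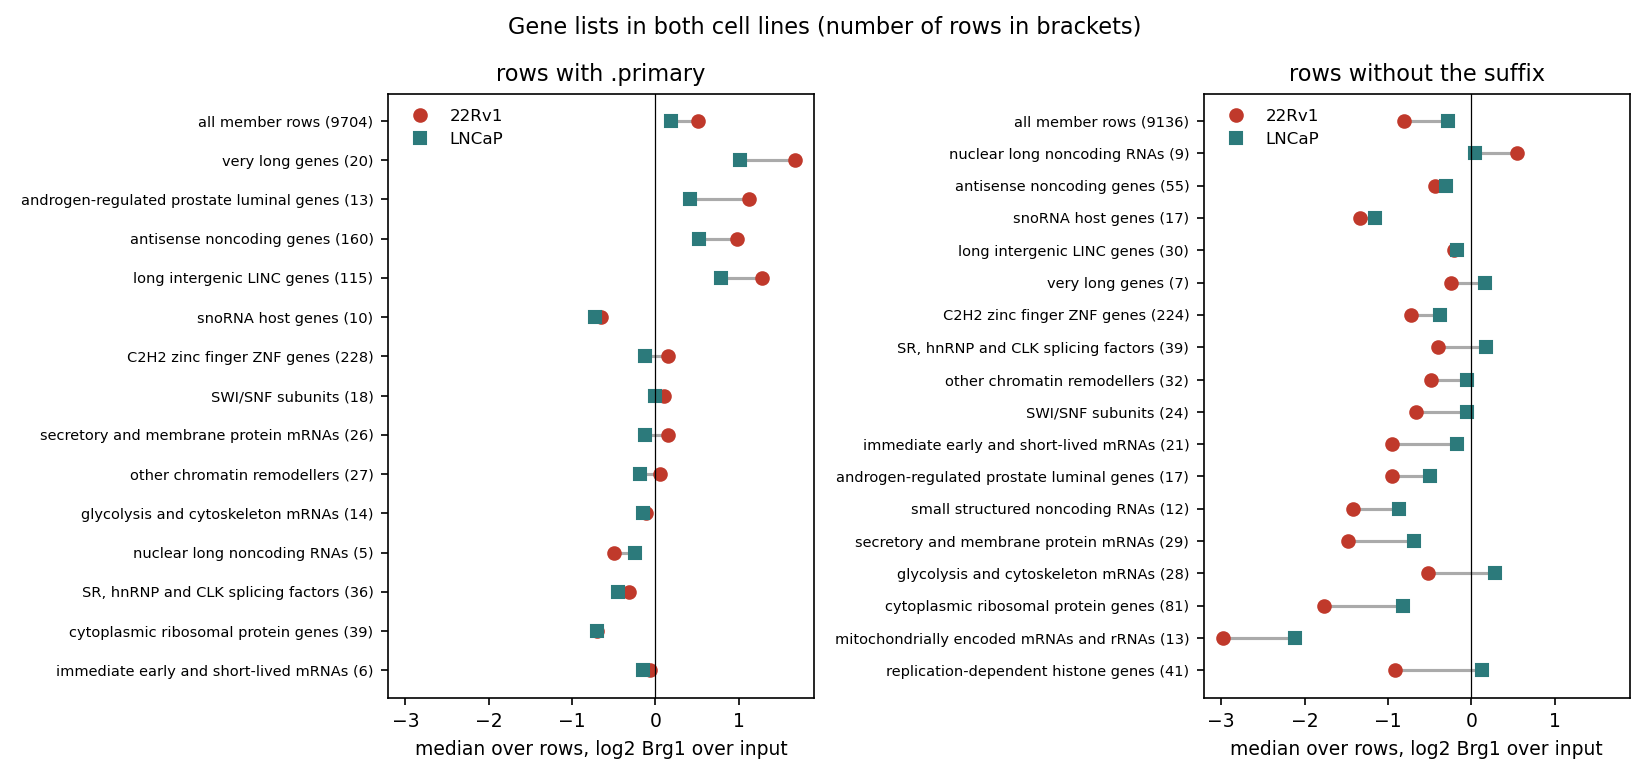
Median log2 ratio of Brg1 to input over the rows of each gene list in 22Rv1 (circles) and LNCaP (squares), for lists with 5 or more rows of a type, with all member rows at the top. Plain histone rows lie at -0.91 and 0.12, mitochondrial ones at -2.98 and -2.12, and .primary rows of very long genes at 1.67 and 1.01.

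The .primary rows of very long genes went the other way, whereas the 7 plain rows of the list had a median difference of -0.33. The 20 .primary rows were all called above input in 22Rv1 and 19 in LNCaP, with medians of 1.67 and 1.01. Of all 9704 .primary rows, 4805 were called above input in 22Rv1 and 2956 in LNCaP. Of 27 rows, 7 were called higher in 22Rv1 and 0 in LNCaP, led by ERBB4.primary, a receptor tyrosine kinase (1.03), and LRP1B.primary (1.03). LRP1B.primary held 787 and 702 RPM in Brg1 against 213 and 185 in input of 22Rv1, and 45.2 and 51.4 against 25.7 and 26.6 in LNCaP. It was the 1 row of the 7 called without the LNCaP A libraries (0.96, adjusted p 0.028). In the IgG libraries of 22Rv1 it averaged 509. Antisense genes had 12 of 215 rows called higher in 22Rv1 and 2 in LNCaP, and LINC genes 8 and 3 of 145. Their .primary rows had median ratios of 0.98 and 0.52 for antisense and 1.28 and 0.79 for LINC genes. With the LNCaP A libraries left out the counts were 1 and 3 for antisense genes, which turns their balance, and 1 and 0 for LINC genes. GAS6-AS1 split by row, with 1.58 for .primary and -1.27 for plain, and neither was called without the LNCaP A libraries (adjusted p 0.31 and 0.074). Antisense reads depend on how strand was counted, which is not given in the sources used here.

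Genes of SWI/SNF itself had 42 rows, of which 6 were called higher in LNCaP and 0 in 22Rv1. All 6 were among the list's 24 plain rows, and of all 9136 plain rows 1768 were called higher in LNCaP. The 6 were BCL7A (-0.90), BCL7C (-1.37), BRD7 (-0.93), SMARCB1 (-1.03), SMARCD2 (-0.96) and SMARCD3 (-1.10). SMARCB1 remained called without the LNCaP A libraries (-0.86, adjusted p 0.048). Over the plain rows, which include SMARCA4, the median ratio was -0.66 in 22Rv1 and -0.05 in LNCaP. Over the list's 18 .primary rows it was 0.11 and -0.01. Other chromatin remodeller genes had 2 of 59 rows called, MTA2 (-0.80) and GATAD2B (-0.86), and 39 alike. Both called rows were among the list's 32 plain rows. SR, hnRNP and CLK splicing factor genes had 7 of 75 called higher in LNCaP, led by HNRNPF (-1.04) and PTBP1 (-0.94), and 45 alike. All 7 were among the list's 39 plain rows. The median difference of the remodellers was -0.48 for plain and 0.20 for .primary rows, and -0.32 and 0.35 with TMM factors. That of the splicing factors was -0.47 and 0.17, and -0.31 and 0.32 with TMM factors. With the LNCaP A libraries left out limma called 0 rows of either list, with 9 and 15 at an unadjusted p under 0.05.

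Androgen-regulated luminal genes had 3 of 30 rows called higher in 22Rv1 and 6 in LNCaP. The 3 were among the list's 13 .primary rows and included STEAP2 (0.87) and PLPP1 (0.77). The 6 were among its 17 plain rows and included PMEPA1, KRT18, KRT8 (-0.96) and FOXA1 (-0.98). PMEPA1 and KRT18 stayed called without the LNCaP A libraries. Zinc finger ZNF genes had 7 of 228 .primary and 2 of 224 plain rows called higher in 22Rv1. Of the 224 plain rows, 20 were called higher in LNCaP, against 1768 of all 9136 plain rows. These 9 and 20 of 452 rows include ZNF423.primary and ZNF521.primary at 1.42 and ZNF710 at -2.01. The counts were 3 and 2 without the LNCaP A libraries, where ZNF423.primary (0.70, adjusted p 0.13) and ZNF710 (-1.79, adjusted p 0.073) were no longer called. Immediate early mRNAs had 5 of 27 called higher in LNCaP, including ID3 (-1.37), DUSP1 (-1.17), CDKN1A (-1.09) and JUN (-0.78), and 0 by limma without the LNCaP A libraries, with 8 at an unadjusted p under 0.05. The 5 immediate early rows called with all libraries were among the list's 21 plain rows. Wider marker lists of other cell types gave 2 member rows each, of which NCAM1.primary was called higher in 22Rv1 and VIM (-1.01) in LNCaP, and no basal marker row was called.

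Noncoding RNAs of known nuclear or cytoplasmic residence showed few called differences by limma on RPM. SCHLAP1.primary held 62.4 and 67.5 RPM in Brg1 against 16.6 and 13.8 in input of 22Rv1. In LNCaP, where its level was far higher, it held 3917 and 4375 against 1736 and 1443. Brg1 lay above input in both lines, 4.26-fold and 2.62-fold. The difference of 0.70 had an interval from 0.17 to 1.24 and missed the threshold (adjusted p 0.069; 0.49 and 0.21 without the LNCaP A libraries), and the row was not alike. Its IgG libraries held 20.6 to 65.2 in 22Rv1, and 23 and 55 reads in LNCaP, which is 1037 and 1188 RPM, below both LNCaP inputs.

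NEAT1, the scaffold of paraspeckles, was alike, with ratios of 1.41 and 1.20. It held 1095 and 1088 RPM in Brg1 against 447 and 379 in input of 22Rv1, and 3329 and 3565 against 1628 and 1378 in LNCaP, while the IgG libraries of 22Rv1 held 1478, 1536 and 740. MALAT1, a nuclear speckle RNA, gave 1.21 and 0.27, a difference of 0.94 (adjusted p 0.22). Its difference was 1.48 by limma with libraries centred within row type (adjusted p 0.029) and 1.09 by edgeR with TMM (adjusted p 0.040). None of the 14 rows of the list of nuclear long noncoding RNAs, which does not hold every such RNA, was called by limma (0 calls), with 4 at an unadjusted p under 0.05, while edgeR called 2 and DESeq2 5. With libraries centred within row type, limma called 4 of the list's 9 plain rows higher in 22Rv1, and 0 in LNCaP. Outside the list, RefSeq gives the type lncRNA to 2 of the 39 rows higher in 22Rv1 under all 3 settings. NORAD and OIP5-AS1 lay below input in both lines, at -2.09 and -1.53, and at -1.66 and -1.26.

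Small structured RNAs lay below input, 11 of 12 rows in 22Rv1 and 7 in LNCaP. All 12 are plain rows, and of all 9136 plain rows 6564 were called below input in 22Rv1 and 2521 in LNCaP. RN7SL1, the RNA of the signal recognition particle, held 1259 and 1082 RPM in Brg1 against 25673 and 32888 in input of 22Rv1, and 6221 and 3335 against 36327 and 51219 in LNCaP. Its difference of -1.39 was not called (adjusted p 0.090), and RPPH1 was the row that was (-1.26; adjusted p 0.11 without the LNCaP A libraries). RN7SK, which restrains the elongation factor P-TEFb, gave -2.92 and -1.93. The snoRNA host genes lay below input in both lines, with 12 of 27 rows alike. Their medians were -1.33 and -1.15 over 17 plain rows and -0.65 and -0.73 over 10 .primary rows. SNHG5 was 1 of 2 called (-1.69, adjusted p 0.0033; -1.71 without the LNCaP A libraries, adjusted p 0.012), with ratios of -2.21 and -0.53. SFPQ, whose protein was also precipitated in 22Rv1, was alike in its plain row (0.15 and 0.60), with an interval from -0.97 to 0.09. That row was called above input in LNCaP alone, and the ratios of the lines did not overlap. Its difference was not called (limma adjusted p 0.25). The .primary row of SFPQ gave 0.61 and 0.04 (adjusted p 0.13).

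At the read minimum, rows whose lowest library held 20 to 22 reads, just inside, numbered 354 with a median difference of 0.07, and those at 17 to 19 reads, just outside, numbered 230 with 0.18.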

How the data were processed

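Per the labels, RNA immunoprecipitates and input of formaldehyde-fixed cells were supplemented with ERCC spike-ins, depleted of ribosomal RNA and made into stranded libraries. The submitters' processing notes name hg38, STAR 2.6, Salmon 0.8.2, deepTools 2.5.2 and DESeq2, with no role or order. The deposited values are a signal, counts normalized by the authors, in 1 table per line and scaled separately. In every library 100% of the values were whole multiples of 1 factor within 0.001 read, so reads were recovered by division; whether rounded estimates underlie them is not stated. Ratios were taken inside a table only.

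limma 3.58.1 (R 4.3.3; trend) was fitted to log2(RPM + 0.1) of the 8 libraries in 4 groups of 2, with 4 residual and 45.9 prior degrees of freedom. Fold changes are on that scale. P-values were Benjamini-Hochberg adjusted over 18840 rows, and the script was tested on simulated data. The simulated counts had no shift between the letters, unlike the LNCaP libraries. Of simulated 2-fold differences 13% were called, and of 4-fold differences 88%. edgeR 4.0.16, DESeq2 1.42.0 and other settings were alternatives. RefSeq (GRCh38.p14) matched 17779 rows and gave gene positions and spans.

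The members, lists and rules were chosen with earlier results of these data known. Named rows were the 10 with the largest called difference in each direction (mean of 5 or more RPM, ratios of the lines not overlapping), the 5 highest and 5 lowest alike, 2 at each end of every list, and 8 set genes. Some genes are not reported here. The labels do not say whether the letters pair samples, and no pairing was used in the main fit. Over rows, the deviations of Brg1 and input from their group means correlated at 0.09 in 22Rv1 and -0.45 in LNCaP. With 2 libraries per group these values cannot settle whether samples were paired.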

Additional observations from a re-analysis of the deposited data

Results flagged for a closer look

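The contrast of Brg1 with input differed between the cell lines, by limma's test of the difference itself, for all 20 rows named for their size. A call by this test was a condition for naming a row, so that all 20 pass it adds no evidence. Their differences in log2 ratio, 22Rv1 minus LNCaP, were 2.55 for TMEM110-MUSTN1.primary, 2.25 for ST6GALNAC5.primary, 2.21 for KCNB2.primary, 2.18 for ETFB.primary, 1.95 for HSPE1-MOB4.primary, 1.91 for RNF139.primary, 1.88 for H2AFX, 1.87 for ENPP7P8.primary, 1.80 for MIR583HG.primary and 1.76 for SYT15. Towards LNCaP they were -2.94 for OAF, -2.63 for OXLD1.primary, -2.46 for RAP2A, -2.45 for GNPNAT1, -2.42 for BCL10, -2.41 for ABHD17C, -2.39 for FOSL2, -2.37 for WDR81, -2.36 for PMEPA1 and -2.36 for RYBP. Without both LNCaP A libraries 10 of the 20 were still called.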

How the results depend on the processing

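The call of a difference between the lines, 2218 rows, ranged from 195 to 6362 when 1 library was left out. It was 242 without both LNCaP A libraries, 8283 without both B libraries, 251 with libraries centred within row type, 398 without the variance trend, 1336 with an absolute log2 value of at least 1 and 1492 with no read minimum. Rows above or below input, 12407 in 22Rv1 and 6965 in LNCaP, became 6991 and 3945 with 100 or more reads, fewer rows being tested, and 6576 and 2096 with an absolute log2 value of at least 1. Leaving out 1 library took the LNCaP count from 4280 to 7818. Rows recovered alike, 6698, became 12988 within row type, 3507 without the B libraries and 3305 to 8816 with 1 library left out; edgeR gives no interval and the fold threshold does not apply to them. Rows recovered in 1 line only, 394, became 71, 2704, 118, 97, 689 and 210 without the A libraries, without the B libraries, within row type, without the trend, with DESeq2 and with the fold threshold, and 55 to 1585 with 1 library left out. The within-gene shift, 276 calls, became 0 and 3906 without the A and the B libraries and 20 to 3105 with 1 library left out. The cause of these changes was not tested.

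With the letter as a replicate block, the differences numbered 424, the alike rows 4278, the rows of 1 line only 95 and the within-gene calls 24; all 20 rows named for their size kept their calls. With the LNCaP letters crossed, the block gave 6178 differences and 1183 rows of 1 line only.

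Differences that changed sign were BRD7.primary (-0.0905), HIST1H2AB (0.0290), TUBA1C.primary (-0.13) and OXLD1 (0.23) without the LNCaP A libraries, FOSL2.primary (0.11) without the B libraries, and MT-ATP8 (0.00131), HIST1H2AB (0.0152), AUTS2 (0.0493) and OXLD1 (0.18) within row type. With 1 library left out, HIST2H2AA4 ranged from -0.15 to 0.99, TUBA1C.primary from -0.00728 to 1.19, RAP2A.primary from -0.0128 to 0.60 and FOSL2.primary from -0.55 to 0.0882. The LNCaP IgG libraries are too shallow for most rows.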
